A study of Rattus norvegicus with 12 samples.

Results

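Circular RNAs from 2 cation transporter genes, Slc24a2 and Slc30a2, were followed in the orbitofrontal cortex (OFC) of rats after heroin self-administration, saline self-administration, sucrose self-administration or none. They are 3 of the 14145 circRNAs on the array: rno_circRNA_012366 and rno_circRNA_012370 from Slc24a2, and rno_circRNA_012897 from Slc30a2. They were selected on the deposited heroin and saline values: the study's list of circRNAs that differed between these groups names their host genes. The heroin and saline values given here are therefore a description with no test. All 3 passed the filter on dim probes, as did 13979 circRNAs in all. Only sucrose against naive, whose arrays played no part in the choice, was tested. The spread in that fit was estimated over all arrays, heroin and saline among them.

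CircRNAs form when the end of an exon is joined back to the start of an upstream exon, a backsplice, which leaves a closed ring with no free ends. They are abundant in brain, resist exonucleases, and can differ in level from the linear mRNA of the same gene. Slc24a2 encodes NCKX2, a potassium-dependent sodium/calcium exchanger of the neuronal plasma membrane that moves calcium out of the cell. Slc30a2 encodes ZnT2, a transporter that moves zinc out of the cytosol into vesicles and is best known from secretory cells. The OFC is a frontal region that takes part in assigning value to rewards and to the cues that predict them. The array reads the backsplice junction alone, so the values say nothing about the linear mRNA or the transporter protein.

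There were 3 rats in each group, with 1 array per rat, and all were adult male Sprague Dawley rats that arrived at 8 weeks of age. Heroin and saline rats had a jugular catheter implanted and took heroin or saline in 10 daily sessions of 6 h. Sucrose rats had no surgery and worked for chocolate sucrose pellets in 10 daily sessions of 2 h. Naive rats, also without surgery, were handled and sat in the chamber for 10 sessions of 2 h with nothing to earn. Tissue was taken straight after the last session. Heroin and saline rats thus differ from sucrose and naive rats in surgery, session length and infusion together. The tissue could not be checked against cell type markers, because host gene names were at hand for the listed circRNAs alone. In whole tissue, fewer cells of a type and less RNA per cell cannot be told apart.

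Each circRNA was read by 1 probe of 60 bases. The probe sequences are shown because they are what the array measured, and they separate the 2 Slc24a2 circRNAs from each other.
rno_circRNA_012366 (Slc24a2): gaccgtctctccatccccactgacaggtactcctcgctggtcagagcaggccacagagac
rno_circRNA_012370 (Slc24a2): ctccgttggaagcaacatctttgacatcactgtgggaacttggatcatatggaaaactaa
rno_circRNA_012897 (Slc30a2): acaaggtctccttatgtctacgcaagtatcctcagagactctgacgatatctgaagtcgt

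The longest run of bases that the 2 Slc24a2 probes had in common was 5, and the Slc30a2 probe shared at most 7 bases in a row with either of them. The probe of rno_circRNA_012366 had 61.7% G or C, the highest value among the 75 listed probes at hand. The other Slc24a2 probe had 41.7% and the Slc30a2 probe 45.0%, against a median of 45.0% over the 75.

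Both Slc24a2 circRNAs are listed on the minus strand of chromosome 5, from 109329444 to 109351378 for rno_circRNA_012366 and from 109334907 to 109389554 for rno_circRNA_012370. The sources used here do not give the genome build of these positions. rno_circRNA_012370 is listed as exonic, and rno_circRNA_012366 as sense overlapping, a class for circRNAs that overlap a gene on its own strand and are classed as neither exonic nor intronic. Their spans, 21934 bp and 54647 bp from end to end, share 16471 bp, which is 75.1% of the shorter span and 30.1% of the longer. They are separate backsplices of 1 gene and not replicates of each other. rno_circRNA_012897 is listed on the plus strand of chromosome 5 from 156333722 to 156383948, a span of 50226 bp, and as sense overlapping with Slc30a2. In the RefSeq annotation of assembly GRCr8, Slc24a2 lies next to Mllt3, and Slc30a2 lies between Trim63 and Extl1.

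**Figure D1:**
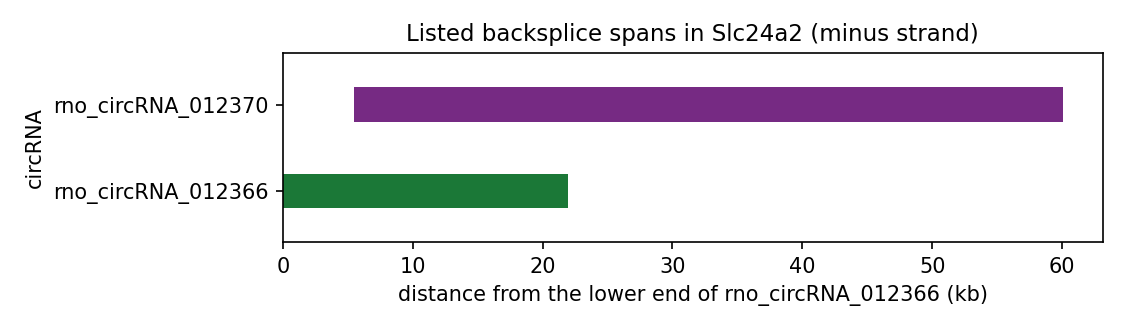
Bars show the listed backsplice spans of the 2 Slc24a2 circRNAs, with distance from the lower end of rno_circRNA_012366 in kilobases on the x axis and 1 circRNA per row. The spans start 5.463 kb apart, and the shorter one (21934 bp) overlaps the longer (54647 bp) over 16471 bp.

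The study's list also gives 5 predicted miRNA partners for each circRNA. A miRNA finds its targets mainly through its seed, bases 2 to 8. All 15 names differed, so the 2 Slc24a2 circRNAs had no listed partner in common, and neither shared one with the Slc30a2 circRNA. Predicted partners beyond the 5 listed for each were not at hand, so shared ones among them cannot be seen. RefSeq (GRCr8) held the mature sequence of 13 of the 15, and these had 13 different seeds. The 7 that were predicted for at least 3 listed circRNAs are shown, with the seed in capitals, because they link the transporter circRNAs to others on the list.
rno-miR-297 (rno_circRNA_012366): aUGUAUGUgugcauguaugcaug
rno-miR-330-5p (rno_circRNA_012366): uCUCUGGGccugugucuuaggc
rno-miR-125a-3p (rno_circRNA_012370): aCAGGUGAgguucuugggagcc
rno-miR-6319 (rno_circRNA_012370): uCAUUCUCgcugcucuggagu
rno-miR-207 (rno_circRNA_012897): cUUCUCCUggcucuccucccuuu
rno-miR-667-5p (rno_circRNA_012897): cGGUGCUGguggagcagugagcac
rno-miR-466b-5p (rno_circRNA_012897): uAUGUGUGuguguauguccaug

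Of these, rno-miR-207 was predicted for 8 listed circRNAs, among them others from Anks1b, Myh10 and Ddx27. rno-miR-466b-5p was predicted for 6, and rno-miR-297 and rno-miR-667-5p for 4 each. rno-miR-297 (with rno_circRNA_012366) and rno-miR-466b-5p (with rno_circRNA_012897) were both also predicted for rno_circRNA_011734, from the glutamate receptor gene Grin2b, and for circRNAs from Anks1b and Eps15. The probes were searched on both strands for the complement of each seed: ACATACA for rno-miR-297, CCCAGAG for rno-miR-330-5p, TCACCTG for rno-miR-125a-3p, GAGAATG for rno-miR-6319, AGGAGAA for rno-miR-207, CAGCACC for rno-miR-667-5p and CACACAT for rno-miR-466b-5p. None was found in the probe of the circRNA it was predicted for, and each was held by at most 1 of the 75 listed probes (1.33%). The probe covers only the junction, so these letters may lie elsewhere in the ring.

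All values below are background-subtracted intensities on the log2 scale, quantile-normalized so that the 12 arrays share 1 distribution. A difference of 1 on this scale is a 2-fold difference. The share of circRNA probes well above background was 95.7% to 98.6% per array, and median intensity ran from 70.1 on naive 1 to 141 on sucrose 1. The 3 transporter probes were well above background on all 12 arrays. Intensity before normalization was 955 to 3782 for rno_circRNA_012366, 190 to 798 for rno_circRNA_012370 and 30.8 to 123 for rno_circRNA_012897, the last against a local background of 14 to 18. The arrays carried 2 scan times, and arrays with the same scan time are taken here as 1 slide; the row on the slide is from the scanner output. On slide 1, all heroin arrays were in row 1 together with saline 1, while row 2 held the remaining saline arrays, sucrose 1 and sucrose 2. All naive arrays were on slide 2 together with sucrose 3.

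rno_circRNA_012366, the shorter Slc24a2 circRNA, gave log2 values of 10.82, 10.59 and 10.54 in heroin rats and 11.22, 11.43 and 11.27 in saline rats. It gave 11.65, 11.62 and 11.52 in sucrose rats, and 10.50, 10.79 and 11.70 in naive rats. The heroin, saline and sucrose groups each held together and none of them overlapped another, whereas the naive rats spread from the lowest value of all 12 arrays (naive 1) to the highest (naive 3). Group means were 10.65 ± 0.15 in heroin, 10.998 ± 0.63 in naive, 11.30 ± 0.11 in saline and 11.60 ± 0.06 in sucrose rats (SD, n = 3). In that order of means, the naive values overlapped those of both neighbours, and saline and sucrose did not overlap.

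rno_circRNA_012370, the longer, exonic Slc24a2 circRNA, gave log2 values of 8.16, 8.17 and 8.11 in heroin rats and 8.79, 8.79 and 8.72 in saline rats. Sucrose rats gave 8.59, 8.96 and 9.48, and naive rats 8.20, 8.41 and 8.54. All heroin values lay below all others, although naive 1 was only 0.032 above the highest heroin value, and sucrose 3 was the highest of all. The order of means was heroin (8.15 ± 0.03), naive (8.38 ± 0.17), saline (8.77 ± 0.04) and sucrose (9.01 ± 0.45; SD, n = 3). Neighbouring groups did not overlap, apart from saline and sucrose.

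rno_circRNA_012897, from the zinc transporter gene Slc30a2, gave log2 values of 5.25, 5.35 and 5.17 in heroin rats and 5.85, 6.63 and 6.51 in saline rats. It gave 6.41, 5.94 and 5.84 in sucrose rats, and 6.00, 6.05 and 5.88 in naive rats. The heroin values stood apart below the rest by 0.49, and the other groups ran into each other. The order of means was heroin (5.26 ± 0.09), naive (5.98 ± 0.09), sucrose (6.06 ± 0.31) and saline (6.33 ± 0.42; SD, n = 3), and only heroin and naive, among neighbours in that order, did not overlap.

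**Figure D2:**
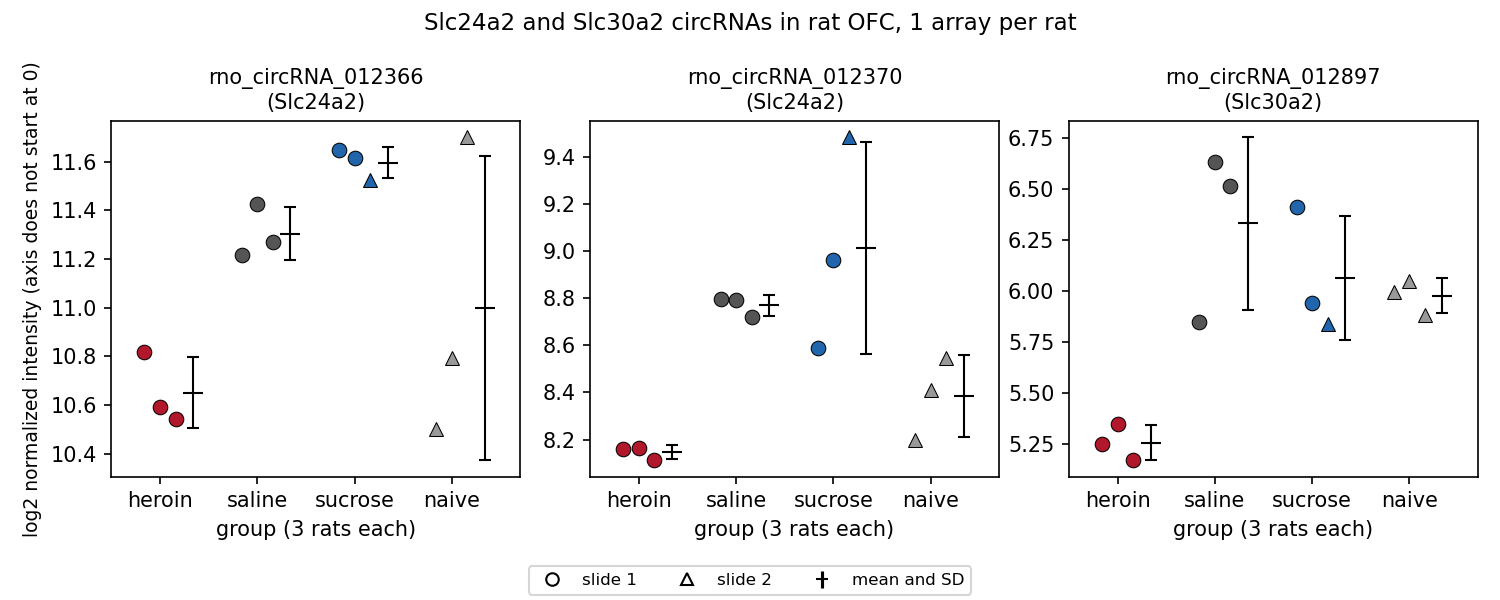
Log2 normalized intensity (y axis, which does not start at 0) of each circRNA by group (x axis), with 1 point per rat, circles for slide 1 and triangles for slide 2, and bars for the group mean and SD (n = 3). The heroin points are lowest in the panels of rno_circRNA_012370 and rno_circRNA_012897, and in that of rno_circRNA_012366 the naive points span 10.50 to 11.70.

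Sucrose against naive asks whether working for a natural reward, against sitting in the chamber, goes with a difference in these circRNAs. No difference passed the adjusted test for any of the 3, or for any circRNA on the array. Both Slc24a2 circRNAs had higher means in sucrose rats, by about the same amount, and the Slc30a2 circRNA was near 0. The log2 difference was 0.60 for rno_circRNA_012366 (standard error 0.24, 95% interval 0.07 to 1.13, limma adjusted p = 0.404), and the groups overlapped because naive 3 lay above every sucrose value. It was 0.63 for rno_circRNA_012370 (standard error 0.20, 95% interval 0.20 to 1.06, limma adjusted p = 0.346), and every sucrose value lay above every naive value. For rno_circRNA_012897 it was 0.09 (standard error 0.21, 95% interval -0.37 to 0.55, limma adjusted p = 0.891), an interval that leaves room for a difference of either sign. The spread in this fit was estimated over all 12 arrays, so the heroin and saline values that chose the circRNAs entered the standard errors. With only the sucrose and naive arrays in the limma fit, the standard errors were 0.29, 0.25 and 0.20 in the same order. The limma adjusted p was then 0.630, 0.610 and 0.912. The exact two-sided permutation test over the 6 arrays gave p = 0.4, p = 0.1 and p = 0.9 in the same order, where 0.1 is the smallest p that 3 against 3 arrays allow.

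Over the 13979 circRNAs tested, limma called 0 (0%) at an adjusted p below 0.05, with 1558 at an unadjusted p below 0.05, and the methods' t-test also called 0 after adjustment. The study threshold, a fold above 1.5 with an unadjusted p below 0.05, was passed by 667 (4.77%), 383 higher and 284 lower in sucrose rats. It counted 1327 without sucrose 3, 1272 without naive 3, 444 without naive 1 and 285 in the deposited values, and without sucrose 3 the adjusted test called 11. Both Slc24a2 circRNAs passed the study threshold, at 1.51-fold and 1.55-fold, and the Slc30a2 circRNA did not, at 1.06-fold. By the methods' t-test neither Slc24a2 circRNA passed it, and rno_circRNA_012366 passed under only 5 of 18 alternatives. With only the sucrose and naive arrays in the fit, rno_circRNA_012366 did not pass. In 718 circRNAs (5.14%), every sucrose array lay above every naive array, rno_circRNA_012370 among them. The log2 differences of rno_circRNA_012366, rno_circRNA_012370 and rno_circRNA_012897 were 0.60, 0.63 and 0.09, against a median of -0.01 over all circRNAs tested.

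The Slc24a2 differences rested on few arrays. Without naive 3 the difference of rno_circRNA_012366 was 0.95 (adjusted p = 0.0689), and without naive 1 it was 0.35. That of rno_circRNA_012370 was 0.39 without sucrose 3, and it ranged up to 0.84 without sucrose 1. On slide 2 alone, sucrose 3 lay above the naive mean by 0.53 for rno_circRNA_012366 and by 1.099 for rno_circRNA_012370, and below it by 0.14 for rno_circRNA_012897. Slide 1 held no naive array, and there the means of sucrose 1 and 2 differed from the saline mean by 0.33, 0.01 and -0.15. The part of the slide in the sucrose and naive values was not tested apart from these values. By limma adjusted p no alternative brought a call for any of the 3, with adjusted p from 0.0689 to 0.966 over 18 alternatives.

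**Figure D3:**
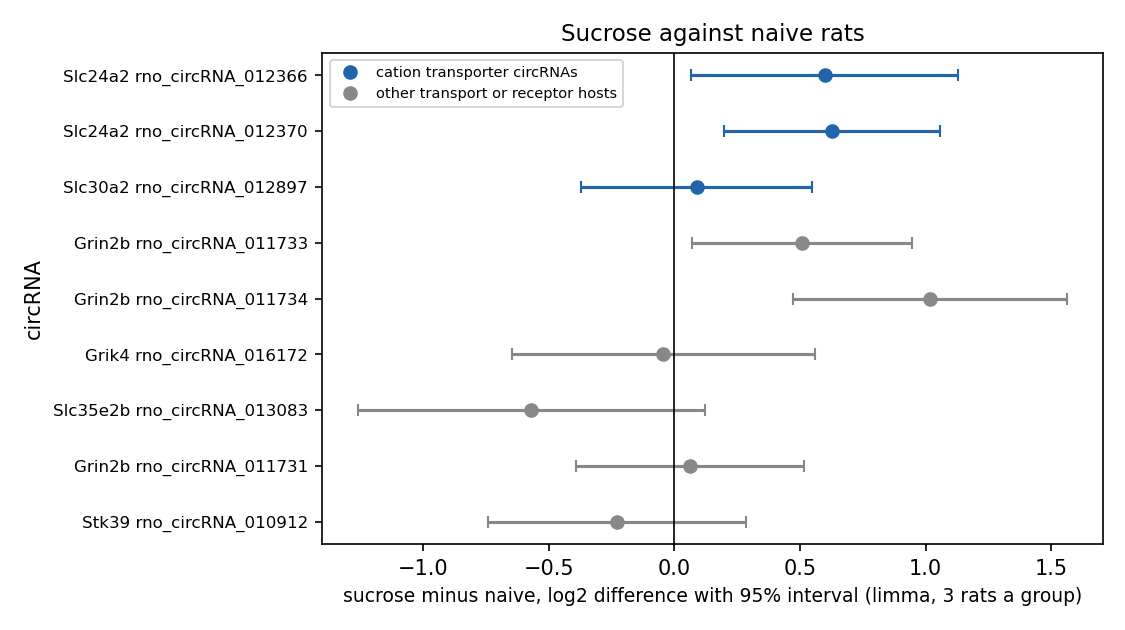
Points show the log2 difference of sucrose minus naive (x axis) with its 95% interval from limma (3 rats a group), for the 3 transporter circRNAs in blue and 6 circRNAs of other transport or receptor hosts in grey. The intervals of both Slc24a2 circRNAs lie above 0 before adjustment over all circRNAs, and that of the Slc30a2 circRNA spans -0.37 to 0.55. The spread behind the intervals was estimated over the arrays of all groups, heroin and saline among them.

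rno_circRNA_012366 varied most among naive rats (SD 0.63) and least among sucrose rats (SD 0.06). Its SD within groups, pooled over these 2 groups, was 0.45, above that of 85.7% of circRNAs tested, against a median of 0.26. The pooled SD of rno_circRNA_012370 was 0.34 (percentile 70.0) and that of rno_circRNA_012897 was 0.22 (percentile 38.0). Over the heroin and saline arrays, whose spread helped to choose the members through the study's p, the pooled SDs were 0.13, 0.04 and 0.31, against a median of 0.22. The value of rno_circRNA_012370 there was at percentile 0.236, which is a description of a chosen circRNA.

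**Figure D4:**
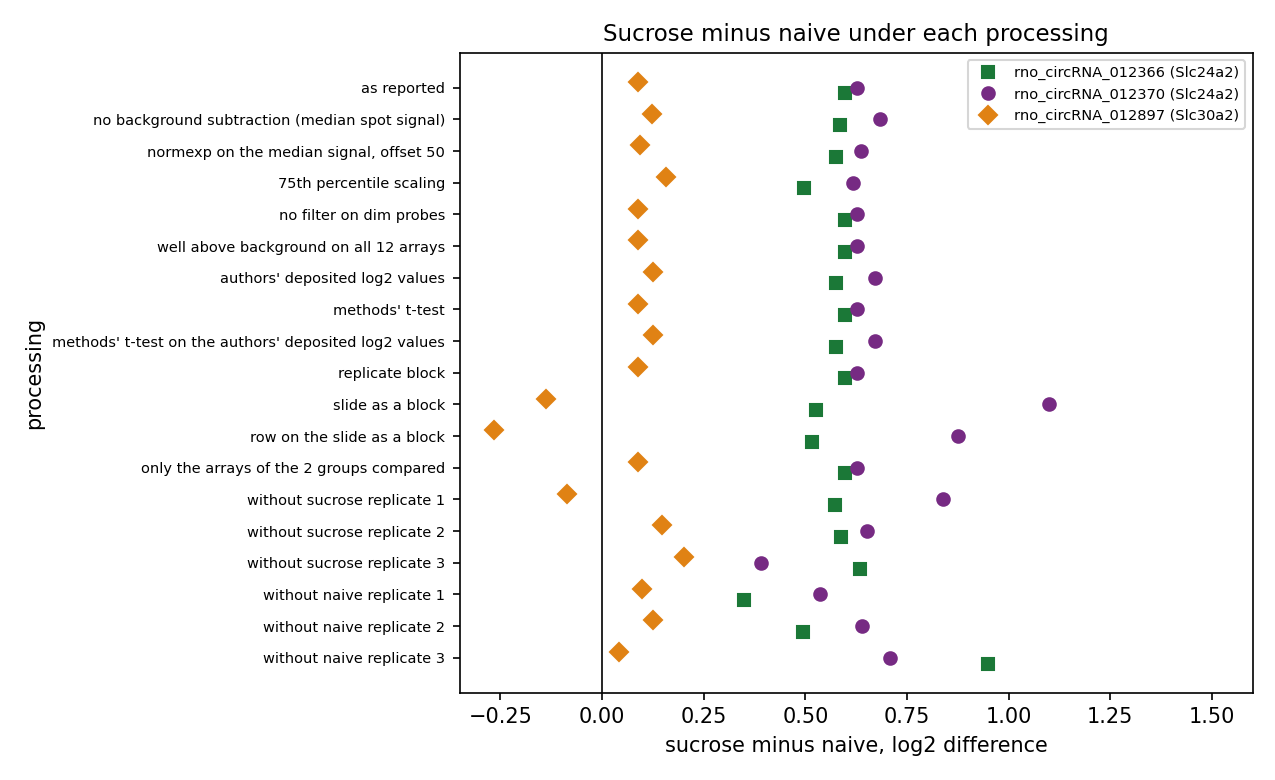
Points show the log2 difference of sucrose minus naive (x axis) for each of the 3 circRNAs as reported and under 18 alternatives (y axis), including each array left out in turn. Every point of the Slc24a2 circRNAs lies above 0, between 0.35 and 1.099, and the points of the Slc30a2 circRNA run from -0.27 to 0.20. Alternatives that change only the filter, the test, the replicate block or the arrays outside the compared groups repeat a difference by construction.

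Heroin against saline is the contrast that chose these circRNAs, all 3 on the lower side after heroin. Heroin means were lower than saline means by a log2 difference of -0.65 for rno_circRNA_012366 (1.57-fold), -0.62 for rno_circRNA_012370 (1.54-fold) and -1.08 for rno_circRNA_012897 (2.11-fold). Every heroin value lay below every saline value for each of them, which also held for 922 of the 13979 circRNAs tested (6.6%). In the deposited log2 values, on which the choice was made, the same differences were 1.56-fold, 1.53-fold and 1.80-fold. By the methods' t-test on those values, 76 circRNAs passed the threshold, 43 of them lower after heroin. The nearest lower circRNA inside that threshold had a fold of 1.505 (probe ASCRPR009165, host LOC100362279) and the nearest outside it 1.497 (probe ASCRPR000588), so both Slc24a2 circRNAs were close to the edge of the list. Within row 1 of slide 1, where saline 1 was the only saline array, the log2 differences were -0.57, -0.65 and -0.59 in the same order. For the Slc30a2 circRNA saline 1 was the lowest saline value, and with background corrected by normexp its difference over all arrays was -0.60. The study also measured circSlc24a2 by quantitative PCR in larger groups of rats. It reports no significant change in males, and a higher level after heroin in females and with the sexes combined. By the same method, it reports no significant regulation of circSlc24a2 by sucrose against naive rats in either sex. Linear Slc24a2 mRNA is reported as not significantly different after heroin in males or females. The study's text names rno_circRNA_012370 as circSlc24a2, and its primer list names rno_circRNA_012366.

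Set against the remaining groups, heroin rats gave lower means throughout. Against naive rats the log2 differences were -0.35 for rno_circRNA_012366, with overlap, -0.24 for rno_circRNA_012370 and -0.72 for rno_circRNA_012897, both without overlap. Against sucrose rats they were -0.95, -0.87 and -0.81, none with overlap. The share of all circRNAs tested without overlap in either pair of groups was not counted, so these separations are descriptions only. For rno_circRNA_012370 and rno_circRNA_012897 all heroin arrays lay below all 9 others, as in 127 circRNAs tested (0.909%), and this held under each of the other background corrections, with scaling to the 75th percentile and in the deposited values. The heroin arrays entered the choice, so these differences have no test, and heroin and naive arrays lay on different slides.

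Saline rats, which had surgery and long sessions, had higher means than naive rats for each circRNA. The log2 difference was 0.31 for rno_circRNA_012366, 0.39 for rno_circRNA_012370 and 0.36 for rno_circRNA_012897, and only for rno_circRNA_012370 did the groups not overlap. How many of all circRNAs tested had no overlap between saline and naive was not counted. Without naive 3 the difference of rno_circRNA_012366 was 0.66. Saline and naive arrays shared no slide. With slide as a block, which ties them through the sucrose arrays, the difference was 1.09 for rno_circRNA_012370 and 0.02 for rno_circRNA_012897. Heroin against saline and saline against naive use the same saline arrays, so a high saline mean enters both.

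**Figure D5:**
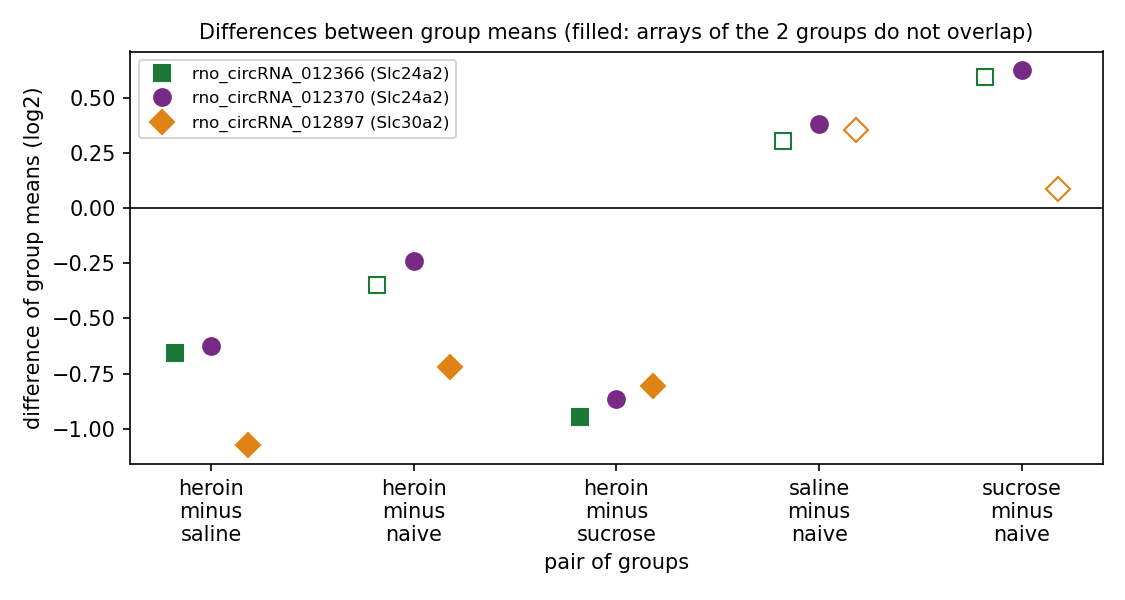
Points show the difference between 2 group means (y axis, log2) for each pair of groups (x axis) and each circRNA, filled where the arrays of the groups do not overlap. All heroin differences lie below 0, from -0.24 to -1.08, and saline and sucrose lie above naive by 0.09 to 0.63.

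The study's list at hand held 6 further circRNAs from genes of ion or solute transport and its regulation. In sucrose against naive, 0 of the 6 passed the adjusted test in limma, and 1 passed the study threshold, which 4.77% of all circRNAs tested passed. In 2 of the 6 every sucrose array lay above every naive array, against 5.14% of all. That one was rno_circRNA_011734 from Grin2b, a subunit gene of the NMDA-type glutamate receptor, with a log2 difference of 1.02 (adjusted p = 0.323 from limma) and no overlap. It shares rno-miR-297 with rno_circRNA_012366 and rno-miR-466b-5p with rno_circRNA_012897, as do listed circRNAs from Anks1b and Eps15. The other Grin2b circRNAs differed by 0.51 (rno_circRNA_011733, no overlap) and 0.06 (rno_circRNA_011731). rno_circRNA_013083 from the solute carrier gene Slc35e2b differed by -0.57, rno_circRNA_016172 from the kainate receptor gene Grik4 by -0.04, and rno_circRNA_010912 from Stk39, a kinase that acts on cation-chloride cotransporters, by -0.23, all with overlap. In heroin against saline, the contrast that listed them, rno_circRNA_010912 was higher after heroin by 0.78 and the other 5 were lower, by differences from -0.80 to -1.07.

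Over the 12 arrays, the 2 Slc24a2 circRNAs had a Pearson r of 0.75 with each other, which ranked rno_circRNA_012370 at 67 of 13977 circRNAs by likeness to rno_circRNA_012366. Their r with the Slc30a2 circRNA was 0.57 and 0.46. The heroin and saline arrays, on which all 3 were chosen as lower after heroin, are among these points, so part of the likeness is built in by the choice. The probes most like rno_circRNA_012366 were ASCRPR004667 (r = 0.91), ASCRPR000883 (r = 0.90) and ASCRPR007755 (r = 0.87). Those most like rno_circRNA_012370 were ASCRPR008537 (r = 0.94), ASCRPR008136 (r = 0.92) and ASCRPR007755 (r = 0.88), so that 1 probe, ASCRPR007755, stood in both sets. For rno_circRNA_012897 they were ASCRPR010322 (r = 0.90), ASCRPR003394 (r = 0.89) and ASCRPR013811 (r = 0.88). These probes were picked by r over the same arrays, their host genes are not among those listed, and the 12 points share the groups and slides described above.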

How the data were processed

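OFC circRNA was measured in 12 rats, with groups taken from the sample labels and 1 array per rat. The p-values thus measure the spread between rats, together with any spread between slides and rows within a group. The methods speak of 8 male samples sent for arrays and, at the filter, of 12; every array was taken as a separate rat, as labelled. RNA was digested with RNase R, which removes linear RNA, and labelled with Cy3. The authors deposited scanner output with the intensity of every spot (Agilent Feature Extraction, version 11.0.1.1) and flags for spots above background, saturated or outlying. They also deposited log2 values that the methods say were quantile-normalized in limma. These have medians of 7.02 to 7.03 and follow the intensity before background subtraction (correlation at least 0.999). The sources do not say whether background was subtracted. No column was without a sample.

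Here the log2 of the background-subtracted intensity was quantile-normalized across all arrays after removal of 9 outlier spots. As in the methods, a probe had to be well above background on 3 or more of 12 arrays. The 13979 that passed were fitted as 4 group means in limma 3.58.1 under R 4.3.3, with Benjamini-Hochberg adjustment. The fit was tested on simulated data. The members and lists were chosen with earlier results of these data known. Named were the 3 members, for each the 3 probes with the highest Pearson r, and the listed circRNAs from transport hosts. Host genes, positions, probe sequences and miRNA names are from the study's list, of which 75 circRNAs were used here. Slides were inferred from scan time, with no slide label used. Alternatives were other background corrections, scaling, filters, the deposited values, the methods' t-test, fewer arrays in the fit, blocks for replicate number, slide and row, and each array left out. The normexp correction used the median spot signal. With 3 arrays a group, precision is limited by their number.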

Additional observations from a re-analysis of the deposited data

Results flagged for a closer look

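For rno_circRNA_012370 from Slc24a2, the log2 difference of heroin minus saline less that of sucrose minus naive was -1.25. It was singled out because every heroin array lay below every saline array while every sucrose array lay above every naive array. Of all circRNAs tested, 6.6% had the first separation and 5.14% the second, and the share with both was not counted. The lowest sucrose value lay 0.043 above the highest naive value. The difference between the contrasts was not tested, and the heroin and saline arrays had chosen this circRNA. Groups of 3 arrays are too small for a check of single outlying arrays.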

How the results depend on the processing

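Both Slc24a2 circRNAs kept a higher mean in sucrose than naive rats under all 18 alternatives, with no adjusted call. Several alternatives could not move the difference itself, only its p. These were the changed filters, the methods' t-test on the same values, the replicate block and the fit on the sucrose and naive arrays alone. The study threshold was passed under 5 (rno_circRNA_012366) and 14 (rno_circRNA_012370) of the 18, and under 0 for rno_circRNA_012897. With each array left out in turn, rno_circRNA_012366 ran from 0.35 to 0.95, rno_circRNA_012370 from 0.39 to 0.84 and rno_circRNA_012897 from -0.086 (without sucrose 1) to 0.20. rno_circRNA_012897 was also below 0 with slide (-0.14) or row (-0.27) as a block. The number past the study threshold, 667, was 319 without background subtraction, 149 with normexp, 285 in the deposited values, 254 by the methods' t-test and 92 by that test on the deposited values, which was chosen after seeing the data. It ran from 444 (without naive 1) to 1327 (without sucrose 3), and was 1272 without naive 3. The number at an adjusted p below 0.05, 0, was 1 without subtraction, 2 with normexp, 3 in the deposited values and 0 to 11 with an array left out (11 without sucrose 3). Heroin minus saline was -0.60 with normexp and -0.72 with row as a block for rno_circRNA_012897, and -0.87 with that block for rno_circRNA_012370. Saline minus naive was 1.09 (slide) and 0.63 (row) for rno_circRNA_012370, 0.016 (slide) and 0.00088 (row) for rno_circRNA_012897, and 0.057 to 0.66 with an array left out for rno_circRNA_012366, 0.66 without naive 3. The causes were not tested. Same-numbered arrays did not vary together (r from -0.20 to -0.04 over 6 pairs), which gave no sign that the numbers pair the rats. The labels do not say whether they do, and so few arrays cannot settle it. Replicate number as a block could not change the sucrose minus naive differences of 0.60, 0.63 and 0.09, because every group held the same numbers. With that block the limma adjusted p was 0.511, 0.464 and 0.908, 649 circRNAs passed the study threshold and 0 were called. The number of arrays limits every value, and so does the low signal of the Slc30a2 probe over its background.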
